A study of Mus musculus with 15 samples.

Results

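The comparison of cocaine with saline in the thalamus of control mice rested on 8 bulk RNA-seq libraries, 4 labelled control cocaine and 4 labelled control saline, out of 15 samples in the series, of which 14 had a table analysed here. The members were grouped by their titles alone, and the comparison was chosen with earlier results of these data known. By the study's methods, control mice were hemizygous males carrying a loxP-flanked Maged1 allele without Cre, on a C57Bl6J background and aged 2 to 4 months. They received saline during 3 days of habituation and then daily intraperitoneal cocaine at 20 mg/kg, or saline again, for 5 days. The other 6 libraries were labelled Maged1-cKO, 2 after cocaine and 4 after saline, a genotype in which Cre driven by the Vglut2 gene is meant to remove the flanked part of Maged1 in Vglut2-expressing cells. Genotypes are given as labelled, and Maged1 itself went against the labels of both cocaine groups. The study's general methods describe the controls as littermates with the loxP-flanked allele, although their titles call them WT. The study's RNA-seq methods also write WT, and count more cocaine than saline samples, the reverse of the titles. A separate genotype tag, given below, names some control saline libraries cKO. The genotype of the control libraries is therefore not certain. Per the series' design text, the samples of a group were separate biological replicates.

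The thalamus relays sensory, motor and limbic signals to the cortex and striatum, and most of its neurons are glutamatergic and express Vglut2 (Slc17a6). Cocaine blocks the reuptake of dopamine, noradrenaline and serotonin. Repeated exposure is known to alter the transcription of synaptic, cytoskeletal and activity-dependent genes in brain regions connected with reward. The midline thalamus lies against the ependyma-lined ventricle and close to the choroid plexus, habenula and hypothalamus, so a microdissected piece of thalamus can hold some cells of each. In bulk tissue, fewer cells of a type and less RNA per cell cannot be told apart.

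Maged1, a member of the MAGE family of ubiquitin ligase partners on chromosome X (GRCm38.p6, chrX:94535474-94542025), was examined first because it separates the genotypes. Values are given as TPM, a transcript level corrected for transcript length and library total, divided by a scaling factor per library (scaled TPM). Maged1 read 58.5, 87.9, 77.3 and 71.3 scaled TPM in replicates 1 to 4 of control cocaine, against 152, 166, 150 and 151 in control saline. It read 64.5 to 78.0 in the 4 libraries labelled cKO saline and 152 and 174 in the 2 labelled cKO cocaine. The libraries labelled control cocaine therefore carried Maged1 at the level of those labelled cKO saline, 2.11-fold below control saline (log2 difference −1.08, SE 0.10, limma adjusted p = 5.91e-05). Between control cocaine and cKO saline the Maged1 difference was 0.02 on the log2 scale, with p = 0.857 in a two-sided exact permutation test over 4 against 4 libraries. In that same exact permutation test control cocaine differed from control saline at p = 0.0286, the smallest p that 4 against 4 allows. Since Maged1 goes against the genotype label, every direction below is that of the libraries labelled control cocaine against those labelled control saline. Genotype and treatment cannot be told apart for them by Maged1 alone. An interaction below tests whether the difference between cocaine and saline differs between genotype labels. For the same reason it cannot be told apart from a plain difference between genotypes. A separate label, the genotype tag, matched the title in all 4 control cocaine libraries but called control saline replicates 3 and 4 cKO, and cKO saline replicates 1 and 2 loxP.

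**Figure D1:**
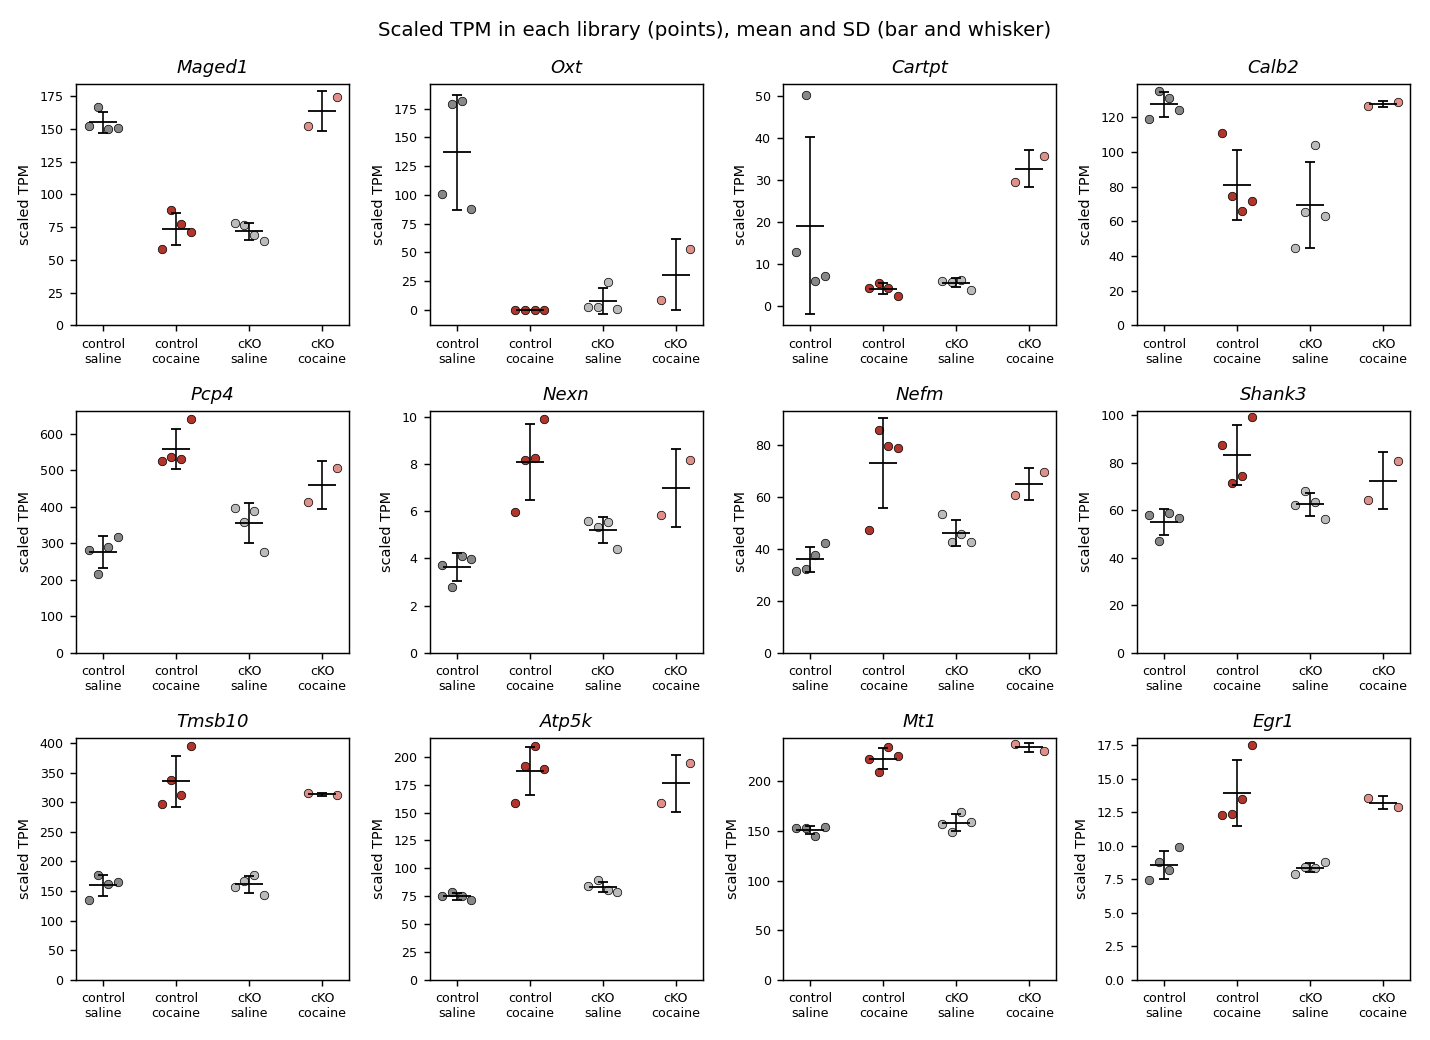
Scaled TPM of 12 genes (y axes) in the 14 libraries, grouped by their labels, with each point a library, the bar the mean and the whisker the SD. Maged1 was low in control cocaine and cKO saline and high in the other 2 groups, while Tmsb10, Atp5k, Mt1 and Egr1 were higher in both cocaine groups than in both saline groups.

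Library pairs within the control cocaine group correlated at Pearson r of 0.956 to 0.966 over tested genes, pairs within control saline at 0.966 to 0.975, and pairs between them at 0.940 to 0.959. TPM keeps no record of depth, so the depth behind each value is unknown. The thalamic label was checked on marker genes. Slc17a6 read 69.8 to 93.6 scaled TPM in the cocaine and 68.9 to 104 in the saline libraries, and Tcf7l2, a thalamic transcription factor, 84.5 to 125 and 74.0 to 91.0. Neurod6, of cortical excitatory neurons, stayed at or below 0.298 in all 8 libraries. Short RNA genes (microRNA precursors, small nucleolar RNAs and the like) took 22.7% to 26.3% of the listed TPM in the cocaine libraries and 17.7% to 18.9% in the saline libraries. They were kept apart from the protein-coding genes below.

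Of 12638 protein-coding genes tested, 178 rose after cocaine (1.41% of those tested) and 145 fell (1.15%), a call being an adjusted p under 0.05 with a log2 difference of at least 0.5. In 170 of the 178 all 4 cocaine libraries lay above all 4 saline libraries, against 15.6% of all tested protein-coding genes. In 115 of the 145 all 4 lay below, against 10.1%. The excess over these shares is built in, because the same libraries gave the calls. The changes were modest, with a median log2 difference of 0.60 among the genes that rose and −0.64 among those that fell. Without the fold minimum, 1973 genes passed as higher (15.6%) and 1134 as lower (8.97%). Over all 13471 tested genes of every class, 1.54% rose and 1.56% fell. At such shares a short list without a call is not unusual. The genes that rose were more abundant (median 12.8 TPM) than those that fell (2.59 TPM), against 7.37 TPM for all tested protein-coding genes. They also had a higher GC content (median 54.2%, against 49.8% for all tested and 47.6% for those that fell). With GC and length trends removed per library, 141 rose and 128 fell. Without scaling, the median of all protein-coding genes moved to −0.33 and the counts became 27 higher and 2101 lower, so every change is relative to the bulk of the genes. The list medians above 0 given below were also negative without scaling (for example −0.13 for thalamus and −0.23 for microtubule genes), and some, such as that of astrocyte genes (−0.33), then lay no higher than the median of all genes. Without the 3 libraries whose lists of neighbouring regions stood apart (control cocaine replicates 1 and 4 and control saline replicate 1, chosen after seeing the data), the counts were 185 and 153. Without control cocaine replicate 1 alone, 243 fell. With the saline libraries grouped by the genotype tag, 106 rose and 73 fell.

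**Figure D2:**
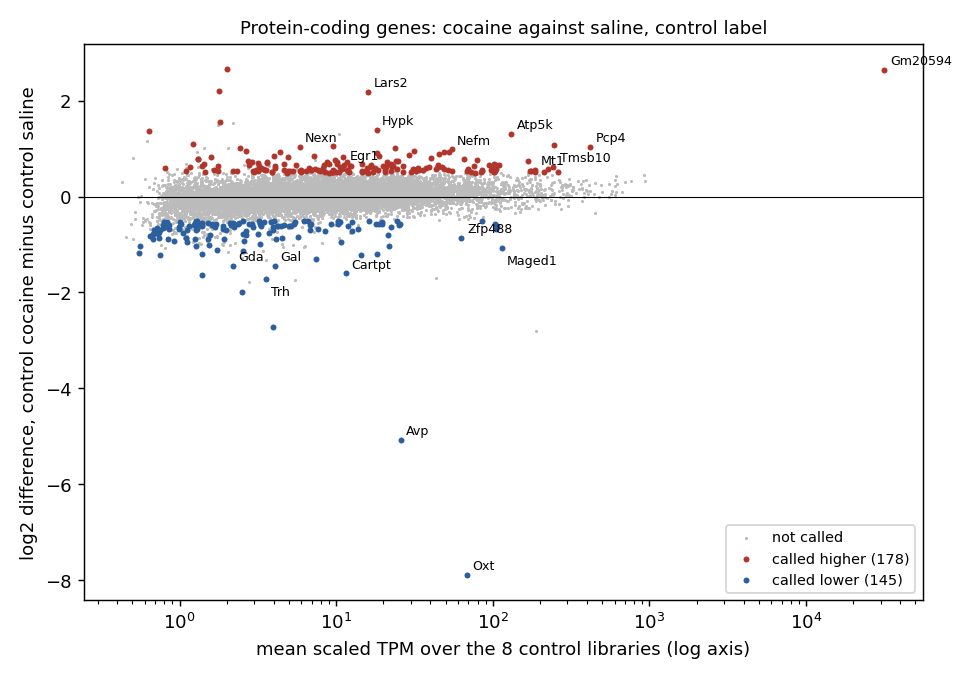
Log2 difference between control cocaine and control saline (y axis) against mean scaled TPM over the 8 libraries (x axis, log scale), with each point a protein-coding gene. The 178 genes called higher (red) stay mostly under a difference of 1.5, whereas a few hypothalamic peptides lead the 145 called lower (blue), Oxt and Avp below all others.

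Several genes of thalamic relay neurons rose in the libraries labelled control cocaine. Of 31 tested thalamus identity genes, 6 rose (19.4%) and 1 fell, and the list's median log2 difference was 0.24, against 0.02 over all protein-coding genes. The list's deviation from the mean of all libraries, averaged over its genes (mean deviation), was 0.23 and 0.30 in cocaine replicates 1 and 4. It was −0.03 and −0.02 in replicates 2 and 3, inside the saline range of −0.27 to 0.03. Without the 3 libraries named above the list's median difference was 0.08. Cocaine replicates 1 and 4 were also the lowest for hypothalamus genes (mean deviation −1.16 and −0.88), and the part of dissection in the thalamic rises was not tested. Pcp4, which binds calmodulin and is abundant in thalamic neurons, read 526, 537, 531 and 642 scaled TPM after cocaine and 280, 215, 289 and 318 after saline (2.04-fold, log2 difference 1.03, SE 0.13, adjusted p = 0.000345). Nexn, which encodes the actin-binding protein nexilin, read 5.99, 8.16, 8.26 and 9.91 against 3.71, 2.79, 4.11 and 3.98, a 2.06-fold rise with adjusted p = 0.000635. In both genes the lowest cocaine library lay above the highest saline library. Tnnt1, a troponin T gene expressed in thalamic relay nuclei, read 30.1, 34.0, 25.2 and 37.5 against at most 19.2 (log2 difference 1.02, adjusted p = 0.00434). Prkcd, the protein kinase C delta gene that marks sensory relay nuclei, read 223, 181, 193 and 247 against 124, 93.0, 143 and 145 (0.75, adjusted p = 0.00699). The one thalamic gene that fell was Calb2, which encodes the calcium-binding protein calretinin and marks midline nuclei. It read 111, 74.8, 66.3 and 72.0 scaled TPM after cocaine and 119, 135, 131 and 124 after saline (log2 difference −0.68, adjusted p = 0.031). Cocaine replicate 1 stood nearest the saline range, without overlap. The Calb2 call was lost without any 1 of control cocaine replicates 2, 3 and 4 or control saline replicates 2, 3 and 4 (−0.84 to −0.59 over the 8 omissions). Without the 3 libraries named above, Tnnt1 (0.82, adjusted p = 0.0677) and Prkcd (0.58, adjusted p = 0.101) missed the threshold. In cKO saline, Pcp4, Nexn, Tnnt1 and Prkcd lay between control saline and control cocaine on average, with differences from control cocaine of 0.66, 0.57, 0.61 and 0.28.

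A few genes of the axonal cytoskeleton rose as well. Of 55 tested microtubule and neurofilament genes 4 rose (7.27%) and none fell, with 43 positive and a median log2 difference of 0.14. Neurofilaments set axon calibre, and the medium chain gene Nefm read 47.5, 86.0, 79.7 and 79.2 scaled TPM after cocaine against 31.7, 32.4, 37.8 and 42.2 after saline (1.98-fold, log2 difference 0.98, SE 0.16, adjusted p = 0.00129). The heavy chain gene Nefh read 42.1, 56.4, 60.2 and 60.3 against 35.0, 29.1, 36.5 and 35.7 (1.59-fold, adjusted p = 0.00268). Replicate 1 was the lowest cocaine library for both chains and still exceeded every saline library. The light chain gene Nefl had a difference of 0.31 (adjusted p = 0.0175), under the fold minimum. Stmn4, of the stathmin family that binds tubulin dimers, read 106, 109, 117 and 130 against 71.0, 70.5, 74.0 and 74.3 (0.66, adjusted p = 5.06e-05). Clip3, a CAP-Gly protein of vesicle trafficking, had one of the smallest p-values in the comparison, with 122, 135, 133 and 145 against 80.8, 85.1, 84.2 and 86.2 (0.67, SE 0.05, adjusted p = 9.68e-06). Tubb4a, a neuronal and oligodendrocyte beta-tubulin, was called at 0.51 and lost the call without control cocaine replicate 2, 3 or 4 or control saline replicate 2 (0.46 to 0.59 over all omissions). Among 55 actin genes, 2 rose and none fell. Tmsb10, thymosin beta 10, which sequesters actin monomers, read 298, 337, 312 and 396 against 136, 177, 161 and 165 (2.10-fold, adjusted p = 3.95e-05). Zyx, the focal adhesion protein zyxin, read 18.5 to 23.4 against 11.7 to 13.8 (0.61, adjusted p = 0.000181).

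**Figure D3:**
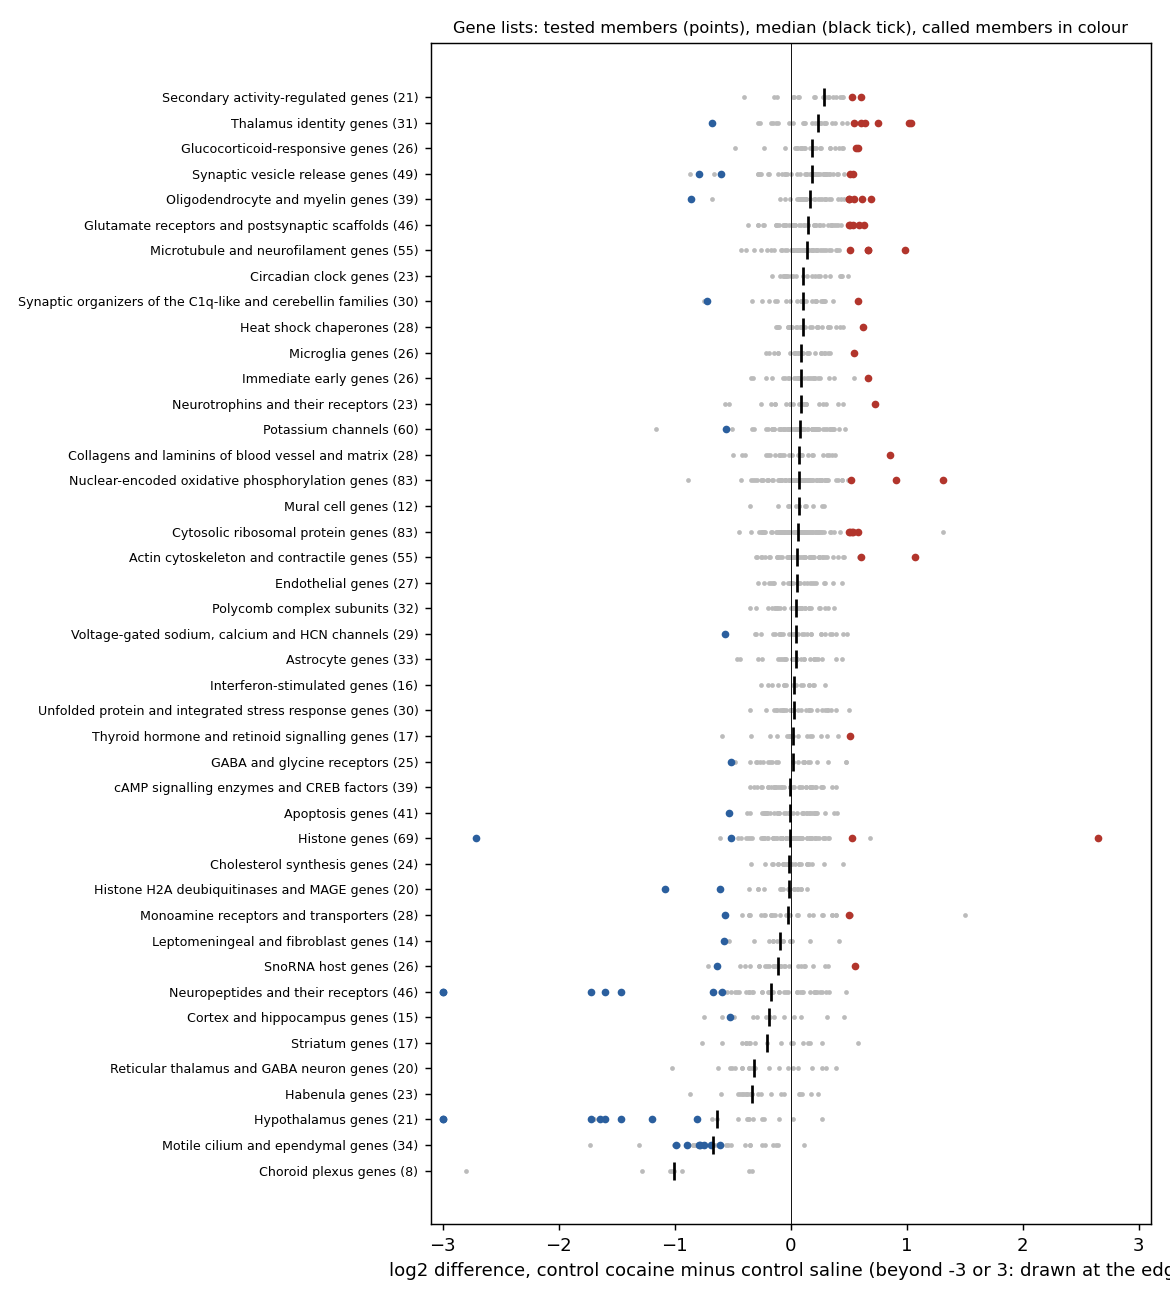
Log2 difference between control cocaine and control saline (x axis) for the tested members of 43 gene lists (rows, number tested in brackets), with called members in red or blue and the black tick at the list's median. Motile cilium, hypothalamus and choroid plexus genes lie to the left, and thalamic, activity-regulated, synaptic, myelin and cytoskeletal genes slightly to the right.

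Calls among postsynaptic genes of glutamatergic synapses were all upward. Of 46 tested receptor and scaffold genes 5 rose (10.9%) and none fell, with a median of 0.15. The list's median was −0.03 in the cKO label, 0.05 against cKO saline and 0.09 without the 3 libraries named above. Cnih3, an auxiliary subunit that slows AMPA receptor gating, read 18.2, 12.5, 13.6 and 16.5 scaled TPM after cocaine against 9.20, 7.85, 9.87 and 11.5 after saline (1.55-fold, log2 difference 0.63, SE 0.13, adjusted p = 0.00488). The Cnih3 difference changed with the genotype label (interaction 1.07, adjusted p = 0.0359). The interaction passed in 5 of the 46 members, against 1.38% of all tested protein-coding genes. Cnih3 had a difference of −0.44 in the cKO label and of 0.09 (adjusted p = 0.656) between control cocaine and cKO saline. Shank3, a master scaffold of the postsynaptic density, read 87.4, 71.7, 74.5 and 99.3 against 58.1, 46.8, 58.7 and 56.9 (0.58, adjusted p = 0.00306). Dlgap4 (0.54) and Dlgap3 (0.51), which tie Shank proteins to PSD-95, passed by a narrow margin. The calls of Shank3 and Dlgap4 were lost without control cocaine replicate 4 (lowest value over omissions 0.50 and 0.45), and that of Dlgap3 without this library or control saline replicate 2 (lowest 0.42). With GC and length trends removed, all 3 scaffolds stayed positive (0.44, 0.42 and 0.35) and missed the fold minimum. Without the 3 libraries named above, Cnih3 had 0.42 (adjusted p = 0.0869) and Shank3 0.44 (adjusted p = 0.0337).

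Presynaptic genes moved both ways. Of 49 tested vesicle release genes 2 rose and 2 fell (4.08% each way), with a median of 0.18. Syn1, synapsin 1, had a difference of 0.53 and Cplx1, complexin 1, of 0.51, and Rab3b (−0.79) and Slc17a8, the vesicular transporter VGLUT3 (−0.60), fell. Each of these 4 calls was lost on leaving out 1 library. Syn1 lost it without control cocaine replicate 4 or control saline replicate 1 (down to 0.47). Cplx1 lost it without control cocaine replicate 2 or 3 or control saline replicate 2 (down to 0.45). Rab3b lost it without control saline replicate 2 (−0.68 to −0.92 over omissions) and Slc17a8 without control cocaine replicate 2 or 3 (−0.54 to −0.74). Among 30 synaptic organizers of the C1q-like, cerebellin and related families, Lrrtm1 rose from 29.4 to 39.0 scaled TPM after saline to 46.9 to 58.9 after cocaine (0.58, adjusted p = 0.000899). C1ql3, a secreted C1q-like synaptic organizer, read 6.35, 9.75, 9.66 and 12.1 against 11.7 to 18.7, so that the groups overlapped at their edges (−0.72, adjusted p = 0.0321). Its call was lost in 6 of the 8 omissions, without control cocaine replicate 1, 2 or 3 or control saline replicate 2, 3 or 4 (−0.85 to −0.55).

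Ion channels and fast inhibitory receptors gave few calls, where 1.41% of all tested protein-coding genes rose and 1.15% fell. In lists of this size such counts do not set these families apart. No gene rose among 60 potassium channels, 29 sodium, calcium and HCN channels or 25 GABA and glycine receptors. In each list 1 gene fell (1.67%, 3.45% and 4%). These were Kcna5 (−0.56), Scn9a (−0.57) and the GABA-A receptor subunit gene Gabrg1, which read 4.86, 5.38, 5.17 and 4.74 scaled TPM after cocaine and 7.03, 7.76, 7.79 and 7.10 after saline (−0.52, adjusted p = 0.00212). All 3 calls depended on single libraries. Gabrg1 lost it without control cocaine replicate 4 or control saline replicate 2 or 3 (−0.55 to −0.49). Kcna5 lost it without control cocaine replicate 1 or 3 or control saline replicate 2 (−0.67 to −0.47). Scn9a lost it without control cocaine replicate 2, 3 or 4 or control saline replicate 2, 3 or 4 (−0.77 to −0.48).

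The direct targets of cocaine are monoamine transporters, and among 28 tested monoamine receptor and transporter genes 1 rose and 1 fell (3.57% each way). The beta-1 adrenoceptor gene Adrb1 read 11.0, 8.52, 10.4 and 12.7 against 7.53, 6.13, 8.10 and 7.60 scaled TPM, with a difference of 0.50 that lay at the fold minimum and lost its call without control cocaine replicate 1 or 4 or control saline replicate 2 (0.41 to 0.60). Maob, monoamine oxidase B, read 13.7, 10.8, 14.6 and 19.2 against 18.7, 21.7, 25.1 and 20.3, with 1 cocaine library inside the saline range (−0.57, adjusted p = 0.0156). Its call was lost without control cocaine replicate 2 or control saline replicate 3 (−0.70 to −0.44). The Maob difference was unlike that in the cKO label (0.78, interaction adjusted p = 0.0247). Against cKO saline the control cocaine libraries had 0.10 for Maob.

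Activity-dependent genes gave few calls. Of 26 immediate early genes, which respond to neuronal activity within minutes, Egr1 alone rose (3.85%). Egr1, a zinc finger transcription factor, read 12.3, 12.4, 13.5 and 17.5 against 7.42, 8.77, 8.17 and 9.93 (1.58-fold, 0.66, adjusted p = 0.00103), with a similar difference of 0.63 in the cKO label. Fos (0.25, adjusted p = 0.519), Arc (0.21, adjusted p = 0.493) and Npas4 (0.11, adjusted p = 0.632) did not pass, and their libraries overlapped. Their median over 26 genes was 0.09. Of 21 secondary activity-regulated genes 2 rose (9.52%), 18 were positive and the median was 0.28, the highest of the 43 lists. Without the fold minimum 10 of the 21 passed as higher and 1 as lower, against 15.6% and 8.97% of all tested protein-coding genes. The list's median was −0.05 in the cKO label, 0.16 against cKO saline and 0.12 without the 3 libraries named above. The 2 genes that rose were Inhba, an activin subunit (0.60), and Dusp5, a phosphatase of ERK (0.53). Inhba was below 1.5 scaled TPM in all 8 libraries and lost its call without control saline replicate 1 or 3 (lowest 0.50). Dusp5 lost its call in 5 omissions, without control cocaine replicate 1 or 4 or control saline replicate 1, 2 or 3 (lowest 0.40).

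Metallothioneins, small zinc-binding proteins induced by metals and glucocorticoids, rose together and with little spread. Mt1 read 223, 210, 234 and 226 scaled TPM after cocaine and 153, 153, 144 and 154 after saline (1.48-fold, log2 difference 0.56, SE 0.05, adjusted p = 1.70e-05). Mt2 read 114, 100, 127 and 130 against 74.0, 82.5, 74.4 and 83.7 (1.49-fold, 0.58, SE 0.08, adjusted p = 0.000678). For both genes the groups did not overlap, and the cKO label gave 0.56 and 0.64. Mt1 (0.49) and Mt2 (0.48) lay just under the fold minimum against cKO saline, as did Mt2 without the 3 libraries named above (0.49). They were the 2 genes called of 26 tested glucocorticoid-responsive genes (7.69%), whose median was 0.18 with 23 positive. The promoters of these neighbouring genes are shown because they rose together. Each run spans 250 bases before to 50 after the RefSeq start on GRCm38.p6, plus strand, at chr8:94178839-94179138 for Mt1 and chr8:94172368-94172667 for Mt2. Capitals mark matches on either strand to TGCACNC or TGCGCNC, the core letters of the metal response element, which the metal sensor MTF-1 binds.
Mt1: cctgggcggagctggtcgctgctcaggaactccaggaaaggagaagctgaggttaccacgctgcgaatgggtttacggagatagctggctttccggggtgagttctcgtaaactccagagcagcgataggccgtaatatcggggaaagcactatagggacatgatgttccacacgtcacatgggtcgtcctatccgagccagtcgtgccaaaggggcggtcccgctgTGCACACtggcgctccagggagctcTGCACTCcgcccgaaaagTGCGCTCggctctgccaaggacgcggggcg
Mt2: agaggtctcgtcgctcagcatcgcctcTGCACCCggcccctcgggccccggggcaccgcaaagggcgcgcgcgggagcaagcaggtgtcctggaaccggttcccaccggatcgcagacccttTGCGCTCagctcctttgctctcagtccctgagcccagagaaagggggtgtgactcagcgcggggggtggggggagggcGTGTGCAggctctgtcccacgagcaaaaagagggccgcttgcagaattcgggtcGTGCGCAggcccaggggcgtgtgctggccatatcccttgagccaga
The Mt1 gene interval, to which RefSeq assigns a curated and a predicted transcript, begins upstream of the start used for its window, at 94178883, whereas the Mt2 interval begins at the start used. The script found 3 matches in the Mt1 window and 4 in the Mt2 window, none overlapping another. At least 3 matches were present in 1.97% of 32851 RefSeq promoter windows of this length, and at least 1 in 25.7%. A match is a run of letters and not a measured binding site. Among 28 heat shock chaperones 1 rose, the small heat shock protein gene Cryab, with 40.5, 62.7, 68.7 and 61.6 against 37.2, 38.8, 36.5 and 35.9 (0.62, adjusted p = 0.00695). No circadian clock, cholesterol synthesis, interferon-stimulated, cAMP signalling or unfolded protein response gene was called, among 16 to 39 tested in each.

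Nuclear-encoded mitochondrial and ribosomal genes gave a split picture, with most members near 0 and a few short transcripts strongly up. Of 83 tested oxidative phosphorylation genes 3 rose (3.61%), none fell, and the median was 0.07. Atp5k, the e subunit of ATP synthase, read 158, 192, 210 and 190 scaled TPM after cocaine against 74.8, 78.9, 74.8 and 71.4 after saline (2.48-fold, log2 difference 1.31, SE 0.08, adjusted p = 1.77e-06). Cox6a2, a cytochrome c oxidase subunit, read 29.6, 19.3, 22.8 and 24.0 against 11.0, 11.8, 13.4 and 13.5 (0.91, adjusted p = 0.000344). Cox5b was called at 0.52 and lost the call without control cocaine replicate 3 or control saline replicate 1 (lowest 0.49). Of 83 cytosolic ribosomal protein genes 5 rose (6.02%) and none fell, again with a median of 0.07. Among them were Rpl19, Rpl21 and Rpl29, of the large ribosomal subunit, at 0.54, 0.53 and 0.51. Rpl19 lost its call without control saline replicate 1, Rpl21 without control cocaine replicate 4, and Rpl29 without control cocaine replicate 2 or control saline replicate 1, with lowest values of 0.50, 0.49 and 0.46. Other small proteins tied to the ribosome or nascent chain were among the strongest calls. Ccdc124, a ribosome-binding factor, had the smallest adjusted p of any protein-coding gene (48.0, 50.1, 52.9 and 54.0 against 31.3, 29.7, 29.1 and 26.8, difference 0.80, SE 0.05, adjusted p = 1.38e-06). Hypk, a partner of the N-terminal acetyltransferase complex at the ribosome, read 17.2, 28.0, 32.3 and 28.3 against 7.78, 12.5, 9.41 and 9.25 (1.38, adjusted p = 0.00044). Edf1, a sensor of collided ribosomes, read 88.4 to 98.5 against 57.6 to 61.5 (0.64, adjusted p = 5.76e-06), and Llph 11.3 to 14.9 against 5.41 to 6.56 (1.06, adjusted p = 5.91e-05). All 4 had nearly the same difference in the cKO label (0.79, 1.40, 0.60 and 0.85). Transcripts under 1000 bases made up 13.3% of the genes that rose, against 3.90% of all tested protein-coding genes and 7.09% of those that fell. With GC and length trends removed, Atp5k (1.34), Hypk (1.37), Llph (1.18), Ccdc124 (0.73), Edf1 (0.61) and Rpl19 (0.54) kept their calls, and Rpl29 (0.47) lay under the fold minimum.

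Glial genes moved little, apart from a group of myelin genes. Of 39 tested oligodendrocyte genes 5 rose (12.8%) and 1 fell, with 34 positive and a median of 0.17. The list's median was −0.09 in the cKO label, −0.07 against cKO saline and −0.02 with groups by the genotype tag, so its direction turned in all 3. Fa2h, which makes 2-hydroxylated myelin lipids, read 13.9, 17.7, 22.8 and 18.6 scaled TPM after cocaine against 12.9, 10.5, 10.4 and 10.2 after saline (0.69, adjusted p = 0.00478). Mobp, a structural myelin protein, read 216, 282, 370 and 311 against 210, 176, 185 and 187 (0.61, adjusted p = 0.0102). Gpr17, a receptor of committed precursors, read 9.11, 8.59, 9.36 and 9.50 against 7.75, 5.91, 5.18 and 5.83 (0.54, adjusted p = 0.0183). The list's mean deviation was −0.26 in cocaine replicate 1 and 0.27 in cocaine replicate 3, a wider range than within the saline libraries (−0.25 to −0.03). Mobp lost its call without control cocaine replicate 3 (lowest 0.49) and Gpr17 without control saline replicate 3 (lowest 0.47). In the cKO label Fa2h and Mobp had 0.18 and 0.02, and the interaction did not pass (adjusted p = 0.257 and 0.196). Zfp488, a transcription factor of the oligodendrocyte lineage, was the exception, at 59.6, 44.0, 36.5 and 40.3 after cocaine against 71.7, 80.6, 88.0 and 84.7 after saline. It fell 1.82-fold (−0.86, adjusted p = 0.000671), and the cKO label gave −0.95. Of 33 astrocyte, 27 endothelial and 12 mural cell genes none was called, and the medians were 0.04, 0.05 and 0.07. Of 26 microglial genes 1 was called, the lysosomal gene Cd68 (1.57, 2.01, 2.42 and 2.31 against 1.42, 1.05, 1.29 and 1.26, difference 0.55), which lost its call without control cocaine replicate 3 or control saline replicate 2 (lowest 0.48).

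The largest falls were in peptide hormones of the hypothalamus. Of 21 tested hypothalamus genes 8 fell (38.1%) and none rose, with 19 negative and a median of −0.64. Oxt, the oxytocin gene (chr2:130574519-130577054 on GRCm38.p6), was listed at 0, 0, 0.233 and 0 scaled TPM in the cocaine libraries against 101, 179, 182 and 87.5 in the saline libraries (adjusted p = 5.91e-05), and no fold is given because 3 libraries were listed at 0. Avp, the neighbouring vasopressin gene, read 0.467, 0.472, 2.12 and 0.737 against 69.4, 73.5, 43.6 and 16.4 (log2 difference −5.07, SE 0.65, adjusted p = 0.00033). Trh, thyrotropin-releasing hormone, read 0.749, 1.03, 2.14 and 1.67 against 6.33, 7.90, 5.19 and 3.49 (−1.72, adjusted p = 0.00168). Gal, galanin, read 1.08, 1.82, 2.29 and 2.58 against 6.75, 7.90, 6.05 and 3.96 (−1.45, adjusted p = 0.00123). In these 4 genes every cocaine library lay below every saline library. Otp (−1.64), a transcription factor of the neurons that make several of these hormones, fell with them, and so did Irs4 (−1.20) and Baiap3 (−0.81). Cartpt, the peptide CART, first known as a transcript regulated by cocaine and amphetamine, read 4.33, 5.47, 4.29 and 2.30 against 12.9, 50.4, 5.93 and 7.03, with replicate 2 far above the other saline libraries (−1.60, adjusted p = 0.0351). Its call was lost without control cocaine replicate 3 or 4 or control saline replicate 1 (−1.96 to −0.96). Without the 3 libraries named above, Cartpt, Otp, Irs4 and Baiap3 missed the threshold (adjusted p = 0.218, 0.0968, 0.204 and 0.112).

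The hypothalamic genes also differed widely among libraries of one label. The summed level of the list ranged from 75.4 to 239 scaled TPM in the cocaine and 238 to 655 in the saline libraries. In the cKO saline libraries Oxt read 2.36, 2.58, 24.5 and 0.578, well below control saline, and in the 2 cKO cocaine libraries 8.74 and 52.8. The difference between cocaine and saline changed with the genotype label for Oxt, Avp, Trh, Gal and Cartpt (interaction adjusted p = 0.00343, 0.0488, 0.0449, 0.0397 and 0.0343). Against cKO saline, the control cocaine libraries differed by −1.43 for Avp, −0.40 for Trh, −0.52 for Gal and −0.41 for Cartpt, none of them called, whereas Oxt was called at −2.83 (adjusted p = 0.0196). How much of the dissected piece came from the hypothalamus was not measured, and its part in these falls was not tested.

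Some genes of ciliated ependyma fell too. Of 34 tested motile cilium genes 7 fell (20.6%), none rose, 33 were negative and the median was −0.67, whereas in the cKO label the median was 0.79. The direction turned against cKO saline (median 0.14), and with groups by the genotype tag the median was −0.17. 1110017D15Rik, expressed in ciliated cells, read 4.25, 2.56, 0.927 and 1.10 scaled TPM after cocaine against 3.78, 4.96, 3.86 and 4.53 after saline (−0.99, adjusted p = 0.0338), with cocaine replicate 1 inside the saline range. Rsph4a, a radial spoke protein, read 1.89, 1.20, 0.689 and 0.229 against 2.14, 2.17, 1.94 and 1.93 (−0.89, adjusted p = 0.0498). Dnah12, an axonemal dynein (−0.79), and Spag16, of the central pair (−0.78), were under 1.1 scaled TPM in all 8 libraries, and lost their calls without any 1 of several libraries (Dnah12 without control cocaine replicate 2, 3 or 4 or control saline replicate 1, Spag16 without control cocaine replicate 3 or 4 or any control saline library, with smallest values of −0.56 and −0.58). Dnah12 did not reach the filter without control saline replicate 2, 3 or 4. The list's mean deviation was 0.39 in cocaine replicate 1, within the saline values of 0.37 to 0.50, and −1.05 in cocaine replicate 4. Of the larger 2, 1110017D15Rik and Rsph4a lost theirs in 6 and 7 of the 8 omissions, keeping it without control cocaine replicate 1 (lowest size −0.74 and −0.59). The other libraries whose omission lost the calls were control cocaine replicates 3 and 4 and control saline replicates 1 to 4, and for Rsph4a control cocaine replicate 2 as well. The 8 choroid plexus genes had a median of −1.01 and no call. Ttr, transthyretin, the main secretory product of that tissue, read 18.7, 11.4, 5.20 and 3.21 against 1406, 10.9, 13.3 and 50.9, with a difference of −2.80 (adjusted p = 0.142) that was −1.27 without saline replicate 1. Saline replicate 1 also had the highest level of 14 leptomeningeal genes (mean deviation 0.98, against −0.23 to 0.14 in the other 7 libraries). The habenula list ran from −1.13 in cocaine replicate 4 to 1.23 in cocaine replicate 1, and the reticular nucleus list from −1.36 in cocaine replicate 1 to 0.31 in cocaine replicate 2, both without a called member. Over the 8 lists of neighbouring regions and linings together, 17 of 147 tested genes fell and none rose. Of all tested protein-coding genes 1.15% fell and 1.41% rose. Of the 17, 8 were hypothalamus genes and 7 motile cilium genes, and the choroid plexus, habenula, striatum and reticular lists held none.

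Outside these lists, a few genes stood apart. Gm20594, a short locus annotated as protein-coding (chr6:79818031-79818364 on GRCm38.p6), was the most abundant of those that rose, at 49313, 39975, 67957 and 61530 scaled TPM after cocaine against 6831, 10483, 8826 and 8591 after saline (6.24-fold, adjusted p = 2.49e-06). Its transcript aligned to the mitochondrial 16S ribosomal RNA gene mt-Rnr2 over 435 positions with 88.5% identity, so its level is uncertain as a measure of its own transcript. Its difference was the same when low genes were kept, with an adjusted p of 0.133. Lars2, the mitochondrial leucyl-tRNA synthetase, read 5.57, 29.3, 32.6 and 42.6 against 4.52, 4.58, 4.30 and 4.58 (2.17, SE 0.50, adjusted p = 0.00777), with cocaine replicate 1 close to the saline level. Both differences recurred in the cKO label (2.63 and 2.67). Lars2 was not aligned to mitochondrial ribosomal RNA, so the uncertainty given for Gm20594 was not tested for Lars2. Gda, guanine deaminase of the striatum and cortex, read 0.582, 1.16, 1.07 and 0.988 against 3.83, 3.67, 3.57 and 2.57 and fell 2.71-fold (−1.44, adjusted p = 0.00114). Psg28, of the pregnancy-specific glycoproteins, fell from 3.08, 3.62, 3.82 and 3.50 after saline to 2.16, 1.39, 1.53 and 1.47 after cocaine (−0.92, adjusted p = 0.000181). Its family holds close copies, among which reads can be split. Igip, which encodes a peptide that induces IgA, read 21.9, 19.1, 19.3 and 19.9 against 30.9, 29.1, 31.7 and 29.4 (−0.58, adjusted p = 0.000176). Slc5a3, the sodium and myo-inositol cotransporter, read 4.58, 4.14, 4.47 and 4.21 against 7.04, 6.75, 6.02 and 6.18 (−0.53, adjusted p = 0.000151), and lost its call without control saline replicate 1 (−0.49). Igip and Slc5a3 had −0.45 and −0.43 with GC and length trends removed. Tnc, the matrix glycoprotein tenascin C, rose by 0.86 (adjusted p = 0.0108) with cocaine replicate 1 at 8.37 and the other 3 at 3.94 to 4.61, against 2.10 to 3.84. Among loci without a known function, LOC114841036 rose by 1.02, and 4930512M02Rik (−1.31), 4930519L02Rik (−1.20) and Gm4724 (−1.98) fell. The Gm4724 call was lost without control cocaine replicate 2 or 3 or control saline replicate 2, 3 or 4 (−2.37 to −1.59).

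Genes of chromatin complexes that Maged1 has been linked with were examined by counts. None of 32 Polycomb complex subunit genes was called (median 0.05), where 1.41% of all tested protein-coding genes rose and 1.15% fell. Without the fold minimum 5 passed as higher and 5 as lower, against 15.6% and 8.97% of all. All 4 cocaine libraries lay below all 4 saline libraries in 8 of the 32, against 10.1% of all. They lay above in 4 of the 32, against 15.6% of all. Of 20 deubiquitinase and MAGE family genes, Maged1 and Ndn, the related gene necdin, fell. Ndn read 93.0, 120, 68.9 and 63.0 against 135, 147, 115 and 115 (−0.61, adjusted p = 0.022), and lost its call without control cocaine replicate 3 or 4 or control saline replicate 1 or 2 (−0.78 to −0.47). Of 69 histone genes 2 rose and 2 fell with a median of −0.01. The near-identical genes H3c14 and H3c15 had opposite calls, at 0, 0, 7.28 and 0 against 5.15 to 6.62 for H3c14 and 4.38, 5.29, 0 and 6.43 against 0 in all saline libraries for H3c15. In each cocaine library 1 of these copies was listed at 0 and the other was not, so their reads may have been assigned to either copy, and neither value is certain. Both calls were lost without control cocaine replicate 1, 2 or 4 or control saline replicate 2, 3 or 4 (smallest −2.38 and 2.27), and that of H3c14 also without control saline replicate 1.

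A few further lists held 1 call or none in each direction. Of 15 cortex and hippocampus genes Rasgrf2 fell (−0.52), of 14 leptomeningeal genes Fbln1 (−0.58), of 41 apoptosis genes Tnfrsf10b (−0.53), and of 17 striatum genes none. Of 17 thyroid hormone and retinoid genes the corepressor gene Hr rose (0.51). Of 26 host genes of small nucleolar RNAs Gas5 rose, from 58.5 to 79.3 scaled TPM after saline to 97.1 to 105 after cocaine (0.55, adjusted p = 0.000344), and Snhg20 fell (−0.64). Among the histones counted above, the linker gene H1f10 rose (0.53) and H4c14 fell (−0.51). Rasgrf2 lost its call without control cocaine replicate 1 or control saline replicate 2 (smallest −0.40), Tnfrsf10b without control cocaine replicate 3 (−0.45), Gas5 without control saline replicate 1 (0.47) and Snhg20 without control cocaine replicate 4 (−0.49). H1f10 lost it without control cocaine replicate 3 or 4 or control saline replicate 4 (0.45), Hr without control cocaine replicate 4 or control saline replicate 3 or 4 (0.41), and Fbln1 in 5 omissions, without control cocaine replicate 2 or 3 or control saline replicate 2, 3 or 4 (−0.49). H4c14 lost it without control cocaine replicate 2, 3 or 4 or control saline replicate 1 or 3 (−0.45).

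The differences called in the control label were set beside those in the cKO label, which shares no library with them. Of the 178 genes that rose, 155 were also positive in the cKO label, with a median of 0.38, against 50.8% of all tested protein-coding genes, and 59 were called higher there too, against a background of 1.80%. Of the 145 that fell, 69 were negative there, with a median of 0.06, against 49.2% of all tested, and 26 were called lower, against 0.855%. A further 16 of the 145 passed an adjusted p of 0.05 in the opposite direction in the cKO label. The interaction passed in 8 of the 178 and 25 of the 145, against 1.38% of all tested protein-coding genes. Unlike the cKO differences, it contains the libraries by which these genes were called, so an excess over that share is built in.

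**Figure D4:**
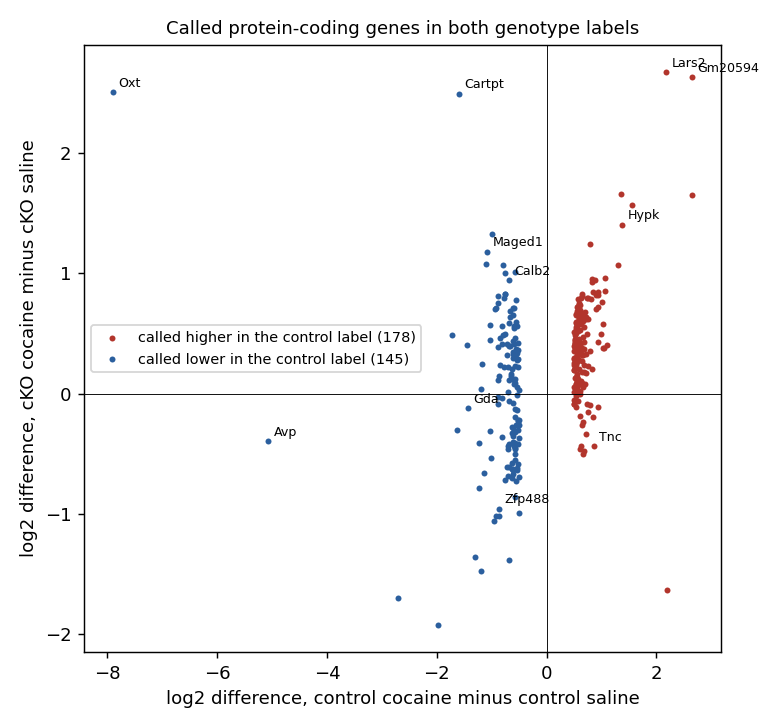
Log2 difference between cocaine and saline in the cKO label (y axis) against that in the control label (x axis), with each point a protein-coding gene called in the control label. Of the 178 genes called higher (red) 155 lie above 0 on the y axis, whereas only 69 of the 145 called lower (blue) lie below it.

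Short RNAs were tested in the same fit and are given apart, because ribodepleted libraries of longer RNA recover them unevenly. Of 216 tested genes 20 rose (9.26%) and 19 fell (8.80%). In 10 and 11 of them the groups did not overlap, against 5.56% (cocaine above) and 6.02% (cocaine below) of the tested short RNAs. Here too the excess is built in, because the same libraries gave the calls. Bc1, a short cytoplasmic RNA of neuronal dendrites, read 38376, 51829, 48408 and 49773 scaled TPM after cocaine against 13136, 14711, 11824 and 14257 after saline (3.48-fold, adjusted p = 1.38e-06), although quantile normalization gave 0.13 for Bc1 and no filter an adjusted p of 0.367. Rn4.5s, a 4.5S RNA, read 990 to 1749 against 137 to 205 (3.04, adjusted p = 1.77e-06). The microRNA locus Mir666 read 134, 107, 176 and 124 against 1.29, 1.89, 2.86 and 1.83 (5.79, SE 0.20, adjusted p = 5.49e-09). Mir1966 read 0, 8.81, 0 and 0 against 59.8, 34.5, 60.6 and 78.8 (adjusted p = 0.000426). The mature sequences of these 2 loci are shown because they led the microRNA changes in each direction, with the seed (bases 2 to 8) in capitals.
miR-666-5p: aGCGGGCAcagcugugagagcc
miR-666-3p: gGCUGCAGcgugaucgccugcu
miR-1966-3p: uUUCUGACucaacucucccuuag
The 3 seeds differ from one another, and the libraries do not measure the mature forms apart from their precursors. Of the snRNAs, Rnu11 rose (2.10) and Rnu6 fell (−0.52), the latter call being lost without control cocaine replicate 3 or 4 or any control saline library (−0.42 at the smallest). Snora31 fell from 39.1 to 49.1 after saline to 8.73, 13.4, 0 and 0 after cocaine (adjusted p = 0.00594). Scarna2, a guide RNA of Cajal bodies, read 63.5, 16.3, 36.1 and 51.3 and was listed at 0 in all 4 saline libraries (adjusted p = 1.56e-07). Snora5c, which guides pseudouridylation, read 24.8, 58.0, 159 and 82.6 scaled TPM against 0 to 0.935 (adjusted p = 2.76e-05). In cKO cocaine, both libraries were listed at 0 for Snora5c (interaction adjusted p = 0.00208, passed by 1.85% of tested short RNAs). Mir666, Mir1966, Rn4.5s and Bc1 had differences of 6.26, −6.47, 3.34 and 2.40 in the cKO label. The treatment label and any difference in how the cocaine and saline libraries were made cannot be told apart, since no label names a preparation batch.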

How the data were processed

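Thalamic RNA had been ribodepleted and sequenced as stranded pairs of 100 bases by the authors, who aligned reads with STAR 2.5.3a to GRCm38.p4/mm10, quantified transcripts with salmon and summarised them to genes with tximport. Each library had its own deposited table of TPM by gene symbol, and the decimal commas in 2 tables were taken as points. The deposited TPM keep no depth, so depth is unknown and no count test could be run. Libraries were put in groups by title. Here each library's TPM was divided by a TMM factor (30% of M values and 5% of A values trimmed, computed directly on TPM, 0.807 to 1.21 over 14 libraries) and tested as log2(TPM + 0.5) with limma 3.58.1 in R 4.3.3, with an intensity trend and 1 mean for each of 4 groups, over the 13471 genes at 1 TPM or more in at least 3 of 14 libraries. Fold changes are on that scale and understate those of low genes. P-values were adjusted over all tested genes by the Benjamini-Hochberg method, and a call needed 0.05 and a log2 difference of 0.5. The script was tested on simulated data. Of 25080 listed symbols 24987 were matched to RefSeq on GRCm38.p6, the source of gene class and the printed sequences. GC content and transcript length were those of the longest GENCODE transcript of each symbol. A short RNA was a small RNA biotype or another noncoding locus of at most 300 bases. The 8 libraries compared and the 43 gene lists were chosen with earlier results of these data known. Genes named were Maged1, the 10 largest rises and falls at a mean of 2 TPM or more without overlap, the 5 smallest p-values each way, up to 4 called members of each list (or its 2 most abundant tested members where fewer than 2 were called) and the leading short RNA of each class, and otherwise marker genes or members with known roles chosen after their values were seen. Other scalings, pseudocounts, filters, groupings by the genotype tag, a replicate block and omission of each library were tried as alternatives. The third cKO cocaine sample was not analysed here. Some genes that the naming rule would take are not reported here.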

Additional observations from a re-analysis of the deposited data

Results flagged for a closer look

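In 267 groups of 4 libraries (93 named genes and 43 summed lists in both control groups, leaving out genes listed at 0 in 3 or more of 4), 29 held a library whose gap to the others exceeded the 95% critical value of Dixon's test. Chance alone gives about 1 in 20. Among genes, control saline replicate 2 stood above the rest for Maged1 (166 scaled TPM, against at most 153), Cartpt (50.4), Kcna5 (1.90) and Snhg20 (18.9), and below them for Shank3 (46.8), Dlgap3 (60.2) and Cplx1 (153). Control saline replicate 1 was high for Ttr (1406, against at most 50.9), Fa2h (12.9) and Rnu11 (59.8), and low for Gm4724 (2.46) and Tnfrsf10b (13.4). Control saline replicate 3 was low for Mt1 (144, the others 153 to 154) and replicate 4 high for Dusp5 (3.14). Control cocaine replicate 4 was high for Pcp4 (642) and Dlgap4 (77.6), replicate 3 for Avp (2.12) and replicate 1 for Scn9a (2.02) and Tnc (8.37).

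Among summed lists, control saline replicate 1 was high for choroid plexus genes (1539 scaled TPM, the others 27.3 to 70.5), leptomeningeal genes (415) and endothelial genes (394). Control cocaine replicate 1 was low for striatum genes (92.6), microglial genes (154), mural cell genes (53.3) and neuropeptides with their receptors (406). Control cocaine replicate 2 was high for deubiquitinase and MAGE genes (462) and interferon-stimulated genes (123), and replicate 4 for circadian clock genes (510).

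In 13 named genes the interaction passed at an adjusted p under 0.05. It cannot be told apart from a plain difference between genotypes, because Maged1 went against the labels of both cocaine groups. The difference between labels (control minus cKO, log2) was −2.26 for Maged1, −10.39 for Oxt, −4.67 for Avp, −2.21 for Trh, −1.86 for Gal and −4.09 for Cartpt. It was −2.31 for 1110017D15Rik, −1.62 for Calb2, −1.86 for Rab3b, −1.34 for Maob and −1.59 for Fbln1. It was positive for Cnih3 (1.07) and Snora5c (7.87), the values of Oxt and Snora5c depending on the pseudocount because of libraries listed at 0.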

How the results depend on the processing

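The 178 higher and 145 lower protein-coding genes and the 20 higher and 19 lower short RNAs stayed within 1.5 times under median-of-ratios or quantile scaling, scaling on protein-coding genes, pseudocounts of 0.1 and 1, no filter, the 8 control libraries alone, no intensity trend and removed GC and length trends. Without scaling the protein-coding counts were 27 and 2101 and the short RNAs that fell 39. Without the fold minimum the protein-coding counts were 1973 and 1134. At a mean of at least 5 TPM, 45 protein-coding genes fell and 11 short RNAs rose. With groups by the genotype tag the protein-coding counts were 106 and 73 and Maged1 was −0.60 (adjusted p = 0.224). With the 10 libraries whose title and tag agree, 67 protein-coding genes fell and 7 short RNAs moved each way. Without the 3 libraries of outlying neighbour lists (added after seeing the data) 12 short RNAs fell. Leaving out each library gave 141 to 210 and 98 to 243 protein-coding genes, 15 to 22 and 12 to 22 short RNAs, and −1.17 to −0.97 for Maged1. The highest count of falls came without control cocaine replicate 1 and the lowest of short RNA falls without control saline replicate 1. Of 92 called genes named, 49 kept their call in each omission, and Dnah12, Slc17a8 and Inhba, among those that lost it, fell below the filter in some.

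Against cKO saline in place of control saline, Maged1 turned to 0.0247, Baiap3 to 0.00388, Spag16 to 0.0642, 1110017D15Rik to 0.24, Calb2 to 0.26, Rab3b to 0.15, Slc17a8 to 0.0326, Maob to 0.10, Scn9a to 0.00893 and Fbln1 to 0.20, and Fbln1 turned to 0.00689 with groups by the genotype tag. The cause was not tested. Without scaling, the list medians for thalamus, glutamate receptor, microtubule and oligodendrocyte genes were −0.13, −0.23, −0.23 and −0.16, above the −0.33 of all protein-coding genes. A replicate block gave 178 higher and 125 lower, and 8 named calls were lost. Same-numbered control libraries did not deviate together (correlations −0.03 to 0.08 in 4 pairs). These values show no large shared deviation, and with so few pairs cannot exclude that the numbers pair the samples. The number of libraries limits the precision, and TPM allow no counting error. Maged1 went against the genotype label of the control cocaine and cKO cocaine libraries, and not against the title of the control saline libraries tagged cKO.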
